A study of Mus musculus with 13 samples.

Results

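The genes described here are the semaphorins, the plexins and the neuropilins, taken from the gene table of the deposited matrices by symbol: Sema3 to Sema7 followed by a letter, Plxna, Plxnb, Plxnc or Plxnd followed by a number, and Nrp1 and Nrp2. The rule found 31 of 32285 genes, of which 20 were semaphorins, 9 were plexins and 2 were neuropilins. The rule itself uses symbols only, but the set was proposed with earlier results of these data known. They were followed in single nuclei of whole frozen hippocampus from 13 female hybrid mice, whose strain is given as C3HB6F1 in the sample labels and as C3B6F1 in the series text, with 13 droplet libraries. Each library is labelled as a sample of its own and is written as 1 mouse below; the labels do not say whether tissue was pooled. The 4 groups were young mice of 5 months fed ad libitum (n = 3), old mice of 24 months fed ad libitum (n = 3), old mice of 24 months on acute dietary restriction, begun at 20 months (n = 3), and old mice of 24 months on long-term dietary restriction, begun at 5 months (n = 4). No group carried an engineered allele or a drug per the labels.

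Semaphorins are ligands that guide growing axons and dendrites, prune and position synapses, and steer the migration of cells. Class 3 semaphorins are secreted and mostly act through a neuropilin, which binds the ligand, joined to an A-type plexin, which carries the signal into the cell; classes 4, 5 and 6 are membrane proteins that bind plexins directly, and Sema7a is anchored to the outer membrane by a lipid. In the hippocampus these proteins are known for laying out the mossy fibre projection of the granule neurons to CA3 and for limiting spines, and in the oligodendrocyte lineage for guiding precursors and for their display on myelinating cells.

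The libraries held 38546292 to 80538090 UMIs (unique molecule counts) in 3524 to 12368 barcodes. After filters and removal of doublets 98041 nuclei remained, and 87732 of them fell into 16 classes named from marker genes, written as X-like. Clusters were made without the 31 genes, so their levels did not place any nucleus. The 4 libraries numbered 1, one in each group, deviated together from their groups in granule neuron-like nuclei, so results below are also given without them where that ends or makes a call. Of the distinct barcodes 1348 occurred in 2 libraries and 10 in 3. The macrophage-like class is read with care, because 46.9% of its cluster's barcodes were removed as doublets and neuronal genes stood there at 40.6% to 66.3% of their level in granule neuron-like nuclei. Levels (CPM) are a gene's UMIs per 1000000 UMIs of the nuclei of 1 class in 1 mouse, summed where there were at least 20 nuclei, and are compared for 1 gene between classes, not between genes, because UMI levels also follow how well a transcript is captured. Clusters of nuclei are no replicates, and these levels carry no test.

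Most members were highest in classes other than the most numerous one. Of the 31 members 5 were highest in endothelial cell-like nuclei, 4 each in fibroblast-like and hilar mossy cell-like nuclei, 3 each in oligodendrocyte precursor-like and astrocyte-like nuclei, and 2 in dentate granule neuron-like nuclei, although the last made up 40446 of the named nuclei. The heat map of levels by class shows each member against its own highest class.

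**Figure D1:**
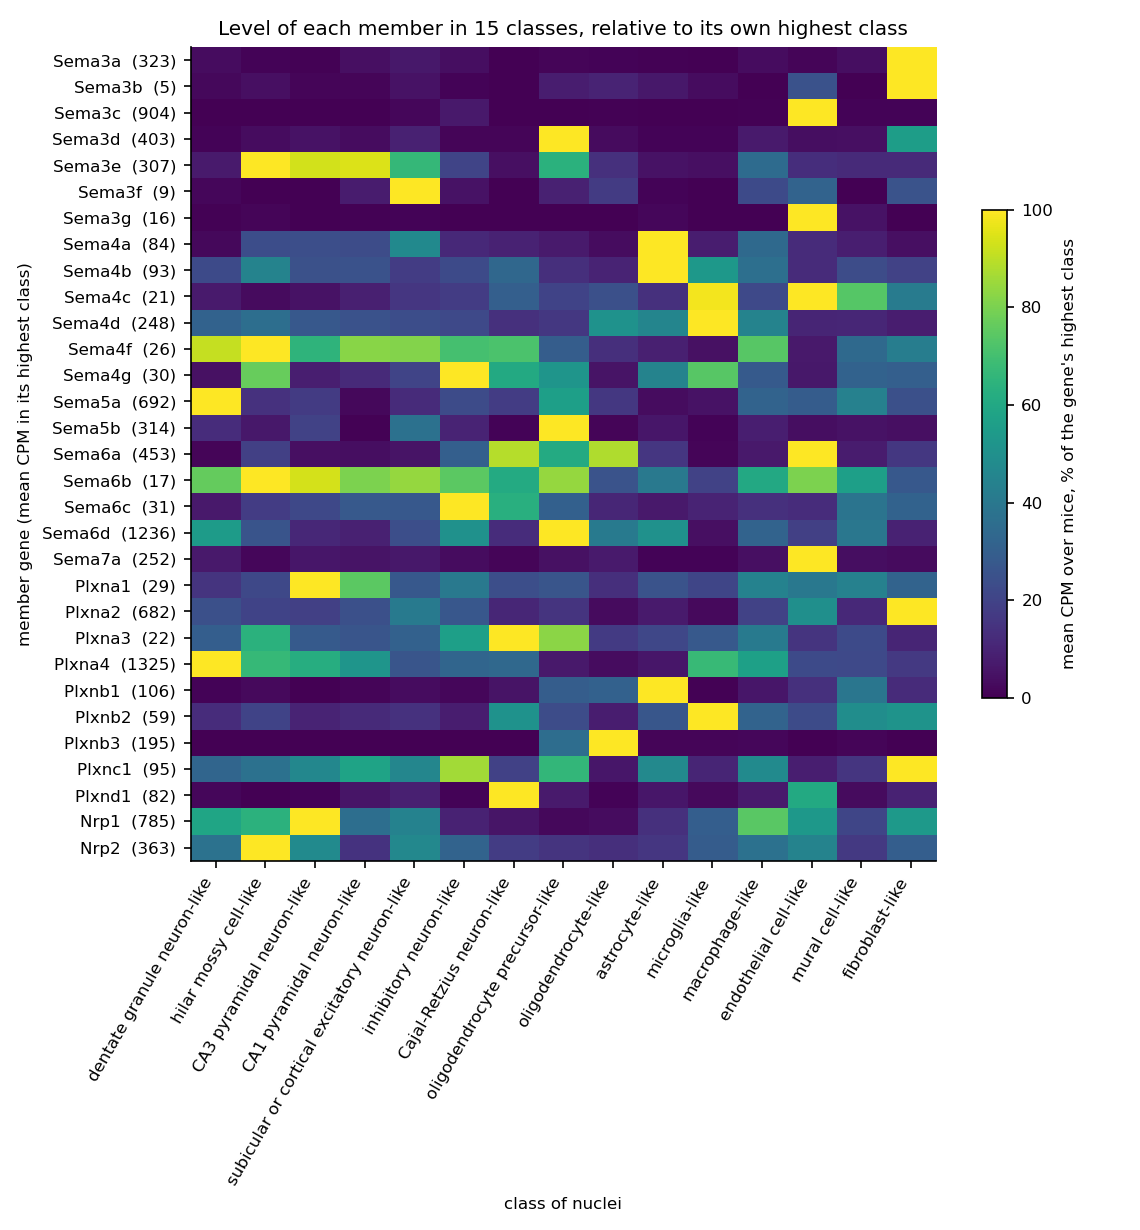
Mean level of each of the 31 members (rows) in 15 classes of nuclei (columns), as a percentage of the mean CPM in that gene's own highest class, which stands in parentheses as rounded CPM. Sema3c, Sema7a and Sema3a are bright in 1 column only, while Sema6b, Sema4f and Nrp1 are spread over many classes.

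Among the secreted class 3 ligands, vascular and meningeal-type classes held the sharpest signals. Sema3c, a ligand known from blood vessel and heart development, stood at 904 ± 147 CPM (SD, n = 9 mice) in endothelial cell-like nuclei and at 61.7 ± 17.7 CPM (n = 13) in the next class, inhibitory neuron-like nuclei, and was higher in the former in 9 of 9 mice. Sema3a, the classical repellent of axons, stood at 323 ± 124 CPM (n = 9) in fibroblast-like nuclei and at 20.9 ± 13.6 CPM in subicular or cortical excitatory neuron-like nuclei. Sema3g was detected in endothelial cell-like nuclei with 15 UMIs in all (16.01 ± 18.3 CPM, n = 9), and Sema3b, highest in fibroblast-like nuclei, also had 15 UMIs there (5.50 ± 5.37 CPM). Neither of these sparse genes passed the filter for testing in any class.

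The other class 3 ligands belonged to oligodendrocyte precursors or to neurons. Sema3d stood at 403 ± 65.2 CPM (n = 13) in oligodendrocyte precursor-like nuclei, above the 224 ± 74.1 CPM of fibroblast-like nuclei in 9 of 9 mice with both classes. Sema3e, which binds Plxnd1 without a neuropilin, was nearly level over 3 neuronal classes, with 307 ± 107 CPM in hilar mossy cell-like nuclei (n = 8), 291 ± 78.2 CPM in CA1 pyramidal neuron-like nuclei (n = 13) and 285 ± 49.1 CPM in CA3 pyramidal neuron-like nuclei (n = 11), differences smaller than the spread over mice. Sema3f, known for trimming spines through Nrp2, was low everywhere and highest in subicular or cortical excitatory neuron-like nuclei at 9.38 ± 1.42 CPM.

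Of the class 4 ligands, Sema4a, Sema4b and Sema4d were highest in glial classes. Sema4a stood at 83.7 ± 12.6 CPM in astrocyte-like nuclei and was highest there in 13 of 13 mice, and Sema4b stood at 92.8 ± 17.1 CPM in the same class, highest in 12 of 13. Sema4d, the ligand of Plxnb1, stood at 248 ± 52.3 CPM in microglia-like nuclei and at 126 ± 24.4 CPM in oligodendrocyte-like nuclei, with microglia-like nuclei higher in 13 of 13 mice. Sema4c was near level between endothelial cell-like (21.2 ± 20.6 CPM) and microglia-like nuclei (20.9 ± 11.7 CPM). Sema4f was low and highest in hilar mossy cell-like nuclei (25.6 ± 9.64 CPM), where its lead over granule neuron-like nuclei held in 4 of 8 mice. Sema4g was highest in inhibitory neuron-like nuclei (30.4 ± 4.32 CPM), stood at 22.5 CPM in microglia-like and 15.8 CPM in oligodendrocyte precursor-like nuclei, and was lowest in granule neuron-like nuclei at 1.33 CPM.

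Sema5a and Sema6d were shared by granule neurons and the oligodendrocyte lineage. Sema5a, which is known to restrain synapse number on granule neurons, stood at 692 ± 63.6 CPM in dentate granule neuron-like nuclei and at 390 ± 64.1 CPM in oligodendrocyte precursor-like nuclei. Sema5b stood at 314 ± 49.4 CPM in oligodendrocyte precursor-like nuclei, above subicular or cortical excitatory neuron-like nuclei (117 ± 63.1 CPM) in 13 of 13 mice. Sema6d, a transmembrane ligand of Plxna1, stood at 1236 ± 134 CPM in oligodendrocyte precursor-like nuclei and was highest there in 13 of 13 mice, followed by granule neuron-like nuclei at 680 ± 87.0 CPM and astrocyte-like nuclei at 626 ± 125 CPM. Sema6a, a transmembrane ligand of Plxna2 and Plxna4, did not separate its leading classes: endothelial cell-like nuclei stood at 453 ± 129 CPM (n = 9), Cajal-Retzius neuron-like nuclei at 402 ± 78.7 CPM (n = 7) and oligodendrocyte-like nuclei at 398 ± 86.6 CPM (n = 13). Sema6b was low and even, with 17.3 ± 8.14 CPM in hilar mossy cell-like nuclei, and Sema6c was highest in inhibitory neuron-like nuclei at 31.1 ± 5.85 CPM. Sema7a stood at 252 ± 72.2 CPM in endothelial cell-like nuclei and at 18.3 ± 4.68 CPM in oligodendrocyte-like nuclei, the next class.

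The A-type plexins signal for class 3 and class 6 ligands. Plxna4 stood at 1325 ± 106 CPM in dentate granule neuron-like nuclei and was highest there in 12 of 13 mice; microglia-like nuclei came next at 894 ± 148 CPM, above the 168 CPM that its granule neuron level times the microglial share of free neuronal RNA gave, in 13 of 13 mice. Plxna2 stood at 682 ± 163 CPM in fibroblast-like nuclei, at 340 ± 155 CPM in endothelial cell-like nuclei and at 280 ± 39.1 CPM in subicular or cortical excitatory neuron-like nuclei. Plxna1 was highest in CA3 pyramidal neuron-like nuclei at 29.5 ± 8.22 CPM, and Plxna3 in Cajal-Retzius neuron-like nuclei at 22.5 ± 17.5 CPM, from 13 UMIs; it was above oligodendrocyte precursor-like nuclei (18.5 ± 8.33 CPM, from 167 UMIs) in only 3 of the 7 mice that had both.

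The B-type plexins were highest in glial classes. Plxnb1 stood at 106 ± 20.8 CPM in astrocyte-like nuclei and was highest there in 13 of 13 mice. Plxnb2, a receptor of class 4 ligands, stood at 59.4 ± 24.5 CPM in microglia-like nuclei. Plxnb3 stood at 195 ± 29.9 CPM in oligodendrocyte-like nuclei and at 69.8 ± 18.9 CPM in oligodendrocyte precursor-like nuclei, and the next class was macrophage-like at 3.10 CPM. Plxnc1, the receptor of Sema7a, was highest in fibroblast-like nuclei at 94.8 ± 40.4 CPM but was close to that in inhibitory neuron-like nuclei, at 81.8 ± 14.5 CPM. Plxnd1, the vascular receptor of Sema3e, stood at 82.1 ± 50.5 CPM in Cajal-Retzius neuron-like nuclei (n = 7, 52 UMIs) and at 49.7 ± 16.9 CPM in endothelial cell-like nuclei.

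The co-receptors were highest in excitatory neurons of the hilus and CA3. Nrp1, which binds Sema3a, stood at 785 ± 129 CPM in CA3 pyramidal neuron-like nuclei (n = 11) and was highest there in 10 of 11 mice, with macrophage-like nuclei at 583 ± 268 CPM and hilar mossy cell-like nuclei at 504 ± 58.1 CPM. Nrp2, which binds Sema3f, stood at 363 ± 65.4 CPM in hilar mossy cell-like nuclei (n = 8), with CA3 pyramidal neuron-like nuclei at 173 ± 22.6 CPM and lower in 8 of 8 mice. Both were lowest in the oligodendrocyte lineage, Nrp1 at 16.9 CPM in precursor-like and Nrp2 at 48.7 CPM in oligodendrocyte-like nuclei.

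Several ligands also divided neurons within a class. Among CA1 pyramidal neuron-like nuclei, Sema3e stood at 429 ± 57.0 CPM in cluster 5, led by Stac and Fibcd1, at 229 ± 44.9 CPM in cluster 6, and at 24.6 ± 9.2 CPM in cluster 12, led by Cpa6 and Prlr. Sema6d ran the other way across the same clusters, at 48.0 ± 16.3, 64.8 ± 41.5 and 376 ± 70.2 CPM. Among inhibitory neuron-like nuclei, Sema3c stood at 3.6 ± 2.2 CPM in cluster 10, which holds the Sst nuclei, at 84.3 ± 29.7 CPM in cluster 14, led by Vip, and at 159 ± 37.7 CPM in cluster 20, led by Sfta3-ps and Gad2. Sema5b marked the Vip cluster alone among these, at 91.8 ± 31.4 CPM against 3.6 ± 2.5 and 2.8 ± 2.8 CPM in the others. In subicular or cortical excitatory neuron-like nuclei Sema5b stood at 269 ± 56.7 CPM in cluster 18 and at 24.6 ± 25.1 CPM in cluster 8, and Sema3e at 21.2 ± 7.5 and 311 ± 45.6 CPM in the same order.

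The design asks what differed with age, what differed under either diet at old age, and whether the diets differed. Sums were tested with edgeR's quasi-likelihood test over all genes in 11 classes, with Benjamini-Hochberg adjustment within a class, and a member was called at an adjusted p below 0.05. Of the 31 members 29 passed the filter on low counts in at least 1 class, which gave 206 tests of a member in a class for each comparison. Only 4 members were tested in mural cell-like and 6 in microglia-like nuclei. The old ad libitum mice serve in 3 of the 4 comparisons, so age and diet differences are not independent of each other. P-values measure only the spread between these samples. The counting of strand is not given in the sources used here, so reads of Sema6d, Sema5a, Sema3e and Plxna4 cannot be told apart from those of annotated genes on the opposite strand within them.

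With age, 8 of the 206 tests were called, 7 higher and 1 lower in old mice, where 1.49% of all genes tested over the same classes were called, 0.868% higher and 0.626% lower. DESeq2 called 9, of which 5 were among these 8. The count fell to 0 without young mouse 2, to 2 without young mouse 3, to 2 without old ad libitum mouse 2 and to 3 without old ad libitum mouse 4, and to 5 without any one of the acutely restricted mice, which enter the estimate of the spread. Oligodendrocyte-like nuclei held 6 of them (of 21 members tested, against 7.79% of all genes in that class, 3.63% higher and 4.16% lower): the ligands Sema6d, Sema5a and Sema3e, the receptor Plxna4 and the co-receptor Nrp1 were higher, and the ligand Sema3d was lower. The other calls were Plxna4 in inhibitory neuron-like nuclei (of 25 members, against 0.112% of genes, 0.0748% higher) and Plxna2 in dentate granule neuron-like nuclei (of 27 members, against 3.43% of genes, 2.53% higher). At an unadjusted p below 0.05 there were 52 members and classes, where 17.6% of all genes and classes stood below it.

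Which members were called with age moved with the tool, the filter and the libraries. DESeq2 did not call Sema3d, Sema3e or Sema5a in oligodendrocyte-like nuclei. It called 4 others, all higher: the co-receptor Nrp1 in granule neuron-like (+0.54, adjusted p 0.0124) and inhibitory neuron-like nuclei (+0.69, 0.0256), Sema4a in CA1 pyramidal neuron-like nuclei (+0.65, 0.0244) and Sema5a in granule neuron-like nuclei (+0.42, 0.0242). Without the libraries numbered 1 edgeR called 11, of which 5 were among the 8. Among the 6 others, Nrp1 (+0.62, adjusted p 0.0219) and the secreted ligand Sema3c (-1.97, 0.00451) were called in granule neuron-like nuclei. Sema3c stood at only 0.913 ± 0.707 CPM there, in its lowest class. Plxna4 (+0.84, 0.0169), Plxnc1 (+1.08, 0.0490) and Sema5a (+1.49, 0.0155) were called in astrocyte-like nuclei. The last was Sema6d in CA3 pyramidal neuron-like nuclei, at -1.03. That fit left 1 old ad libitum mouse in the class, so only the effect size is given for it. Sema3c and Sema6d were lower in old mice. With all 13 libraries edgeR gave +0.54 (adjusted p 0.0554), -1.54 (0.0705), +0.48 (0.279), +0.93 (0.119), +0.81 (0.411) and -0.83 (0.701) for these 6. In fits without 1 mouse, leaving out young mouse 1 also added Nrp1, Sema3c, Plxnc1 and Sema5a in granule neuron-like nuclei, leaving out long-term mouse 3 added Nrp1 there, and leaving out old mouse 1 added Plxna4 in astrocyte-like nuclei. Without a filter on low counts edgeR also called Nrp1 in inhibitory neuron-like (+0.73, adjusted p 0.0241) and Plxnc1 in astrocyte-like nuclei (+0.99, 0.0282). In oligodendrocyte precursor-like nuclei it then called Plxna4 (+0.89, 0.00979) and Sema6a (+0.58, 0.0169). The calls in astrocyte-like nuclei are set beside free neuronal RNA below.

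Before the oligodendrocyte results, the letters upstream of Sema6d and Sema5a are shown, since these are the members that differed in that class in more than 1 comparison. They are the 250 bases before each RefSeq start in GRCm38.p6, plus strand, 5′ to 3′; Sema6d has 2 starts in that table. Capitals mark 3 short motifs searched on both strands: ACAAAG, the core bound by SOX proteins such as those of the oligodendrocyte lineage; GGGCGG, the GC box; and CACGTG, the E-box.

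Sema6d, first start, chr2:124089719-124089968: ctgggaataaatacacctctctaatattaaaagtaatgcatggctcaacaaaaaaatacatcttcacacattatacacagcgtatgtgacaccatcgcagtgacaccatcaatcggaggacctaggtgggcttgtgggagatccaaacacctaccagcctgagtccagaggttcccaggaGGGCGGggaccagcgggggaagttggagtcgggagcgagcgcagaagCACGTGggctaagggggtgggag
Sema6d, second start, chr2:124653331-124653580: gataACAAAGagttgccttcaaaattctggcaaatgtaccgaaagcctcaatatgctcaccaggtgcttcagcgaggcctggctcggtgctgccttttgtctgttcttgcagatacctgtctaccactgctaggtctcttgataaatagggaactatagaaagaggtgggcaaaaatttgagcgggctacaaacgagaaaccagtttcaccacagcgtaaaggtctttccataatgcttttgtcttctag
Sema5a, chr15:32244563-32244812: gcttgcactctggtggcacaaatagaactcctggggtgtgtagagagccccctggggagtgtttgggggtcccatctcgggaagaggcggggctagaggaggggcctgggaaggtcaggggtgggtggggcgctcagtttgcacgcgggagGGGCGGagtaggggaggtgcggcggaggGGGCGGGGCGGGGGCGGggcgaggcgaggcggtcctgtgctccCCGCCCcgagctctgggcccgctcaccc

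The windows differed from each other in these letters. Sema5a held 5 matches of the GC box, some of them side by side, and 72.0% G and C, and neither of the other motifs. The first Sema6d start held 1 GC box and 1 E-box, and the second, at 45.2% G and C, held 1 SOX core. Of 32851 windows of the same length 32.7% held the GC box, 16.5% the SOX core and 6.02% the E-box. A match describes letters only, and the 3′ counts do not show which Sema6d start was in use.

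Sema6d in oligodendrocyte-like nuclei stood at 475, 470 and 498 CPM in the young mice, at 743, 630 and 697 CPM in old ad libitum mice, at 417, 450 and 438 CPM under acute restriction and at 376, 453, 468 and 484 CPM under long-term restriction. Each of the 3 old ad libitum mice stood above every other mouse. The difference with age was +0.57 ± 0.13 (log2 fold change ± SE; edgeR adjusted p = 0.00607). Without the libraries numbered 1 it was +0.44 with an adjusted p of 0.0651, and without young mouse 2 it was +0.58 with an adjusted p of 0.0555. Sema6d spans 577.8 kb (GRCm38, chr2:124089969-124667770), and when the trend of fold change on gene length was removed the difference turned to -0.22 (adjusted p = 0.651).

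Sema5a in the same nuclei stood at 45.3, 119 and 123 CPM in young mice, at 228, 171 and 184 CPM in old ad libitum mice, at 72.1, 68.2 and 91.4 CPM under acute restriction and at 114, 79.0, 61.5 and 106 CPM under long-term restriction. Again all old ad libitum mice were above all others. The difference with age was +0.77 ± 0.23 with an edgeR adjusted p of 0.0489, just inside the threshold, and it lost its call in 10 of the 13 fits that left out 1 mouse (adjusted p 0.0514 to 0.211) and without the libraries numbered 1 (+0.53, adjusted p 0.141). It was also not called by DESeq2 (+0.83, 0.0577), with RLE scaling (+0.75, 0.0583) or with a term for the libraries numbered 1 (+0.73, 0.0509). Sema5a spans 451.5 kb (chr15:32244810-32696341), and without the length trend the difference was +0.14 (adjusted p = 0.879). The lowest young value, 45.3 CPM, rests on 4 UMIs, since young mouse 1 had 47 oligodendrocyte-like nuclei.

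**Figure D2:**
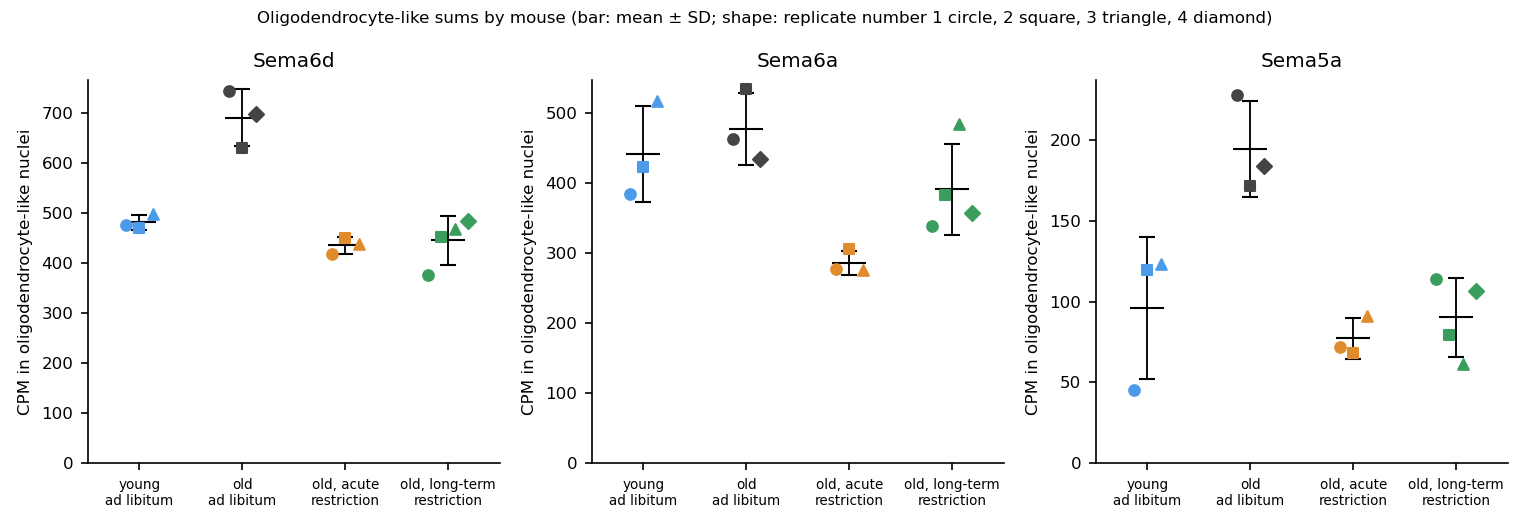
CPM of Sema6d, Sema6a and Sema5a in oligodendrocyte-like nuclei (vertical axes, from 0) by group, 1 point per mouse, with the mean and SD as bars. For Sema6d the old ad libitum mice lie between 630 and 743 CPM and no other mouse is above 498 CPM.

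Sema3d, the ligand highest in precursor-like nuclei, was the one called lower with age: 11.3, 26.6 and 32.7 CPM in young mice against 9.91, 12.4 and 10.9 CPM in old ad libitum mice. The groups overlapped, because young mouse 1, with 1 UMI, stood among the old mice. The difference was -1.27 ± 0.34 (edgeR adjusted p = 0.0198), and it was not called by DESeq2 (adjusted p = 0.153) or without young mouse 2 (-1.32, 0.122), young mouse 3 (-1.05, 0.161), old mouse 2 (-1.36, 0.0805) or old mouse 4 (-1.21, 0.0925).

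Sema3e stood at 11.3, 18.8 and 28.8 CPM in young and at 42.1, 45.4 and 41.3 CPM in old ad libitum mice, without overlap of the measured values. The 11.3 CPM of young mouse 1 rests on 1 UMI. The difference was +0.91 ± 0.26 (edgeR adjusted p = 0.029). It was not called by DESeq2 (adjusted p = 0.125), without the libraries numbered 1 (+0.83, 0.0514), or without young mouse 2 (+0.72, 0.319), old mouse 2 (+0.87, 0.125) or old mouse 4 (+0.97, 0.0559), or without the length trend (+0.49, 0.409).

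The receptors Nrp1 and Plxna4 were higher in old mice in this class from very low levels. Nrp1 had no UMI in young mouse 1, stood at 11.1 and 10.6 CPM in young mice 2 and 3, and at 54.5, 38.5 and 27.3 CPM in old ad libitum mice. Plxna4 had no UMI in young mouse 1, stood at 25.4 and 26.9 CPM in the other young mice, and at 136, 65.7 and 51.8 CPM in old ad libitum mice. A count of 0 among the UMIs of young mouse 1, counted as 3 UMIs, allows up to 33.9 CPM for either gene (counting error only). The measured values of neither gene overlapped between the groups, though for Nrp1 that limit lies above old mouse 4, and the differences were +1.84 ± 0.42 for Nrp1 (edgeR adjusted p = 0.0076) and +1.59 ± 0.42 for Plxna4 (edgeR adjusted p = 0.029). Nrp1 was not called without young mouse 2 (+1.94, 0.0903) or young mouse 3 (+1.89, 0.0543), and Plxna4 was not called without young mouse 2 (+1.64, 0.21), young mouse 3 (+1.73, 0.103) or old mouse 2 (+1.76, 0.0567), or without the length trend (+0.97, 0.136).

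These low levels were set beside free neuronal RNA, that is, transcripts of lysed neurons caught in other droplets. The 6 neuronal genes Slc17a7, Camk2a, Nrgn, Rbfox3, Grin2a and Snap25 were read in oligodendrocyte-like nuclei as a share of their granule neuron-like level. Their median share was 6.99% to 9.26% in young mice and 10.4% to 13.1% in old ad libitum mice, without overlap. It was 10.8% to 11.7% under acute and 5.69% to 16.04% under long-term restriction. Taking each member at the same share of its level in granule or CA1 pyramidal neuron-like nuclei, Nrp1 and Plxna4 were at or under the level so given in 13 of 13 mice, so expression by these nuclei is not shown for them. Sema3e was above it in 10 of 13 mice but near it (means of 42.2 and 30.99 CPM), and Sema5a was above it in 10 of 13. Sema6d and Sema6a were above it in 13 of 13, Sema6d at a mean of 508 against 71.0 CPM and Sema6a at 398 against 1.7 CPM. In astrocyte-like nuclei Plxna4 was above the level so given in 1 of 13 mice (means of 82.1 and 131 CPM) and Sema5a in 0 of 13 (23.5 and 68.4 CPM). Expression by astrocyte-like nuclei is therefore not shown for these genes, while Plxnc1 was above it there in 13 of 13. Plxna4 in oligodendrocyte precursor-like nuclei was above it in 5 of 13 (89.7 and 102 CPM). The level so given assumes that each gene enters in the ratio of the 6 genes, and its part in the differences was not tested.

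**Figure D3:**
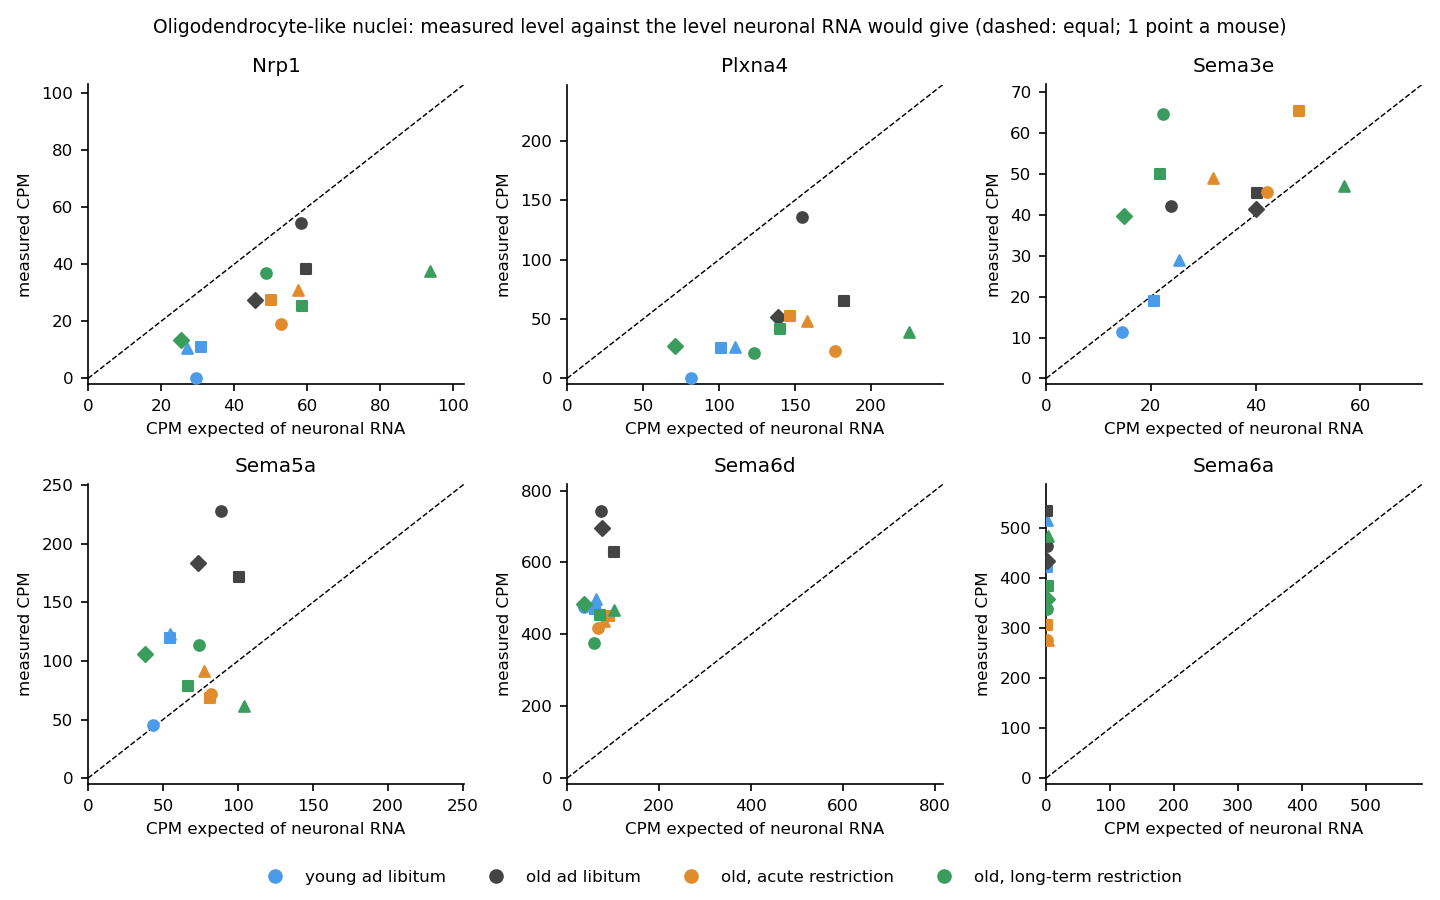
Measured CPM in oligodendrocyte-like nuclei (vertical) against the CPM that the neuronal share of that mouse would give (horizontal, the larger of the values from granule and CA1 pyramidal neuron-like nuclei), 1 point per mouse, equal on the dashed line. Nrp1 and Plxna4 lie below the line in all 13 mice, Sema6d and Sema6a far above it.

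Depth per nucleus moved with the groups too. The median UMI count of oligodendrocyte-like nuclei was 1182 to 1661 in young, 1988 to 3169 in old ad libitum, 1577 to 1889 in acutely restricted and 1673 to 2300 in long-term restricted mice. With that median as a covariate none of the member or partner calls of any comparison passed the threshold, although Sema5a then differed by -1.37 under acute and -1.17 under long-term restriction. The 8 oligodendrocyte markers summed to 14400 to 18214 CPM in young and 14192 to 16136 CPM in old ad libitum mice, to 13791 to 15203 CPM under acute and to 12914 to 14495 CPM under long-term restriction. The 6 precursor markers summed to 45 to 116 CPM in young mice, 97 to 137 CPM in old ad libitum mice, 87 to 103 CPM under acute and 52 to 110 CPM under long-term restriction, and their part in the results was not tested. The granule neuron marker list summed to 3425 to 4310 CPM in young, 4417 to 4580 CPM in old ad libitum, 4172 to 4246 CPM in acutely and 3973 to 4540 CPM in long-term restricted mice. That list summed to no more than 3461 CPM in granule neuron-like nuclei themselves, so its sum does not measure granule neuron content here. With age 2 other lists moved without overlap in oligodendrocyte-like nuclei: the 6 hilar mossy cell markers summed to 14.4 to 56.6 CPM in young and 2.48 to 12.7 CPM in old ad libitum mice, and the 6 Cajal-Retzius neuron markers to 9.96 to 11.3 and 16.2 to 26.9 CPM. Their part in the results was not tested.

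Plxna4 in inhibitory neuron-like nuclei stood at 328, 368 and 319 CPM in young mice and at 532, 472 and 468 CPM in old ad libitum mice, without overlap. The difference was +0.64 ± 0.12 (edgeR adjusted p = 0.0479). The call was lost in 11 of the 13 fits without 1 mouse (adjusted p 0.0562 to 0.21) and with scaling by total UMIs (+0.54, 0.063), with RLE scaling (+0.65, 0.0549) and without the length trend (+0.38, 0.345). In the same nuclei 3 marker sums of other neurons were higher in old than in young mice without overlap, from 528 to 600 up to 663 to 731 CPM for the 7 granule neuron markers, from 384 to 449 up to 484 to 510 CPM for the 6 CA1 markers and from 444 to 555 up to 613 to 623 CPM for the 7 CA3 markers. The sums of the 8 microglial markers (54.8 to 194 and 37.3 to 53.9 CPM) and the 5 ependymal cell markers (3.497 to 5.85 and 2.65 to 3.22 CPM) were lower without overlap. Median UMIs per nucleus were 4140 to 7644.5 in young and 9240 to 14578.5 in old ad libitum mice. The part of these in the result was not tested. All 11 classes tested gave a value above 0 for Plxna4 with age, from +0.00 in microglia-like nuclei upward, as all 11 did for Nrp1 and all 9 for Plxna2, but classes of 1 mouse share a library and are not independent. For Plxna4 the values in granule, CA1 and subicular or cortical neuron-like nuclei were +0.35, +0.44 and +0.49, none of them called in the edgeR fit of all 13 libraries without added terms.

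Plxna2 in dentate granule neuron-like nuclei stood at 146, 145 and 146 CPM in young mice and at 169, 177 and 197 CPM in old ad libitum mice, without overlap. The difference was +0.48 ± 0.11 (edgeR adjusted p = 0.0445). The call was lost in 10 of the 13 fits without 1 mouse (adjusted p 0.0524 to 0.175) and without the length trend (+0.32, 0.155). Over all genes in this class the median difference with age was -0.04 with TMM scaling and -0.21 with scaling by total UMIs, and with the latter Plxna2 differed by +0.31 (adjusted p = 0.0633). In these nuclei 5 marker sums were also higher in old than in young mice without overlap, from 2445 to 3030 up to 3207 to 3345 CPM for the 7 granule neuron markers themselves, from 747 to 793 up to 923 to 1001 CPM for the 6 oligodendrocyte precursor markers, from 284 to 300 up to 320 to 361 CPM for the 8 oligodendrocyte markers, from 262 to 361 up to 370 to 429 CPM for the 6 CA1 markers and from 421 to 547 up to 586 to 605 CPM for the 7 CA3 markers. Lower without overlap were the sums of the 5 immature neuron markers (44.2 to 56.3 and 42.1 to 43.9 CPM), the 6 choroid plexus markers (20.3 to 39.2 and 14.5 to 19.3 CPM) and the 7 mural cell markers (3.53 to 7.04 and 2.55 to 3.32 CPM). Median UMIs per nucleus were 3878.5 to 6560 in young and 7083 to 12799 in old ad libitum mice. The part of these in the result was not tested.

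**Figure D4:**
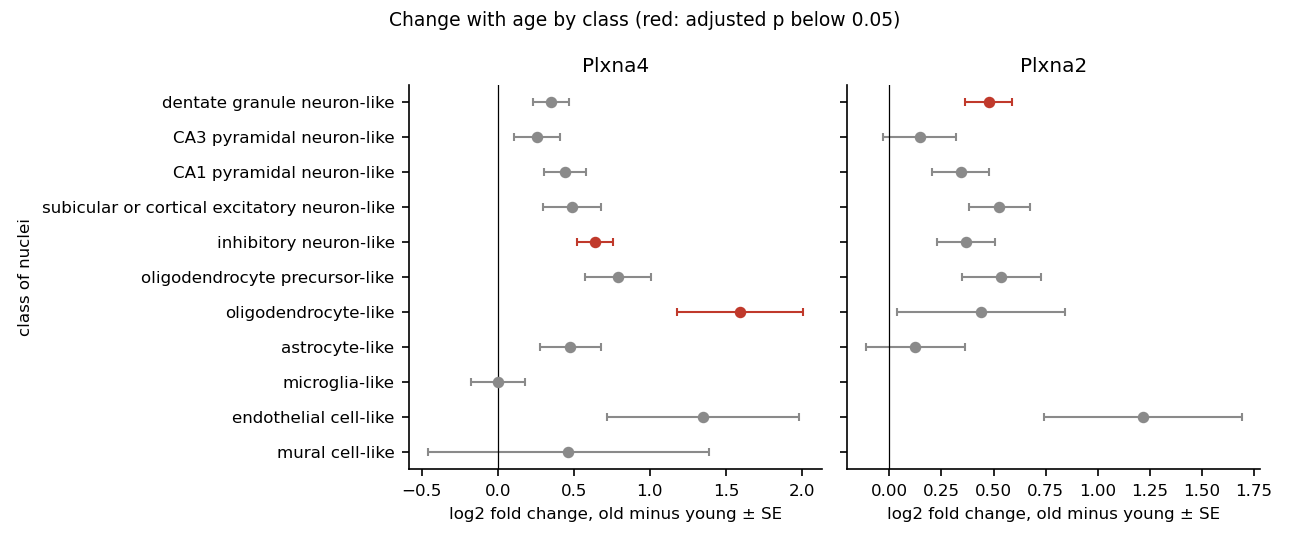
Log2 fold change with age (old minus young, both ad libitum; points, with SE as bars) of Plxna4 and Plxna2 in each class where the gene was tested. Red points passed the adjusted threshold: Plxna4 in inhibitory neuron-like and oligodendrocyte-like nuclei and Plxna2 in dentate granule neuron-like nuclei.

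Under acute restriction, 3 of the 206 tests were called, all lower and all in oligodendrocyte-like nuclei, where 0.23% of all genes over the classes were called (0.13% lower) and 2% of those in that class (1.14% lower). DESeq2 called the same 3, and without a filter on low counts edgeR also called Plxna4 there (-0.69, adjusted p = 0.0487). The 3 are transmembrane ligands. Beside them, in the same nuclei, the 5 markers of committed oligodendrocyte precursors summed to 905 to 961 CPM in old ad libitum and 724 to 847 CPM in acutely restricted mice, and the 7 inhibitory neuron markers to 2169 to 2656 and 1973 to 2157 CPM, neither with overlap. The 6 Cajal-Retzius neuron markers, at 16.2 to 26.9 and 3.79 to 15.8 CPM, and the 6 hilar mossy cell markers, at 2.48 to 12.7 and 14.0 to 19.0 CPM, did not overlap either. The part of these lists in the results was not tested. Sema6d, with the values given above, was lower than in old ad libitum mice by 0.72 on the log2 scale (fold change -0.72 ± 0.13, edgeR adjusted p = 0.000839), and the groups did not overlap.

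Sema6a stood at 463, 534 and 434 CPM in old ad libitum and at 277, 306 and 276 CPM in acutely restricted mice, against 385, 423 and 517 CPM in the young. All 3 acutely restricted mice were below all other mice of the study, the lowest of which under long-term restriction stood at 339 CPM. The difference from old ad libitum mice was -0.80 ± 0.15 (edgeR adjusted p = 0.00126). Sema5a differed by -1.34 ± 0.22 (edgeR adjusted p = 0.00185), again without overlap, and 2 of the 3 mice were then under the value that neuronal RNA would give. That value also exceeded the measured Sema5a in astrocyte-like (means of 68.4 and 23.5 CPM) and microglia-like nuclei (87.0 and 35.0 CPM). In either class 0 of 13 mice were above it, so a fall of Sema5a to the level of free RNA is not shown. These 3 calls held without the libraries numbered 1 and in each fit that left out 1 mouse. Sema6d alone of them lost its call when the length trend was removed (-0.42, adjusted p = 0.334).

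Under long-term restriction, 2 of the 206 tests were called, both lower and both in oligodendrocyte-like nuclei, against 0.0511% of all genes over the classes (0.031% lower) and 0.396% in that class (0.264% lower). DESeq2 called 3, these 2 and Plxna4 in oligodendrocyte-like nuclei (-1.29, adjusted p = 0.034), which edgeR also called without a filter on low counts (-1.10, 2.55e-05) but not with it (-1.09 ± 0.31, 0.182). Sema6d differed from old ad libitum mice by -0.64 ± 0.12 (edgeR adjusted p = 0.00871) and Sema5a by -1.16 ± 0.20 (edgeR adjusted p = 0.0138), without overlap for either. The Sema6d call was lost without the libraries numbered 1 (-0.48, adjusted p 0.108), old mouse 1 (-0.56, 0.0576), old mouse 4 (-0.64, 0.0521) or long-term mouse 2 (-0.62, 0.0501). The Sema5a call was lost without old mouse 4 (-1.20, 0.0609) or long-term mouse 2 (-1.08, 0.108). Without the length trend neither was called (-0.33, adjusted p 0.534, and -0.88, adjusted p 0.118). Sema6a stood at 339, 383, 485 and 358 CPM, overlapping the old ad libitum mice, and its difference of -0.30 ± 0.13 was not called (edgeR adjusted p = 0.449).

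**Figure D5:**
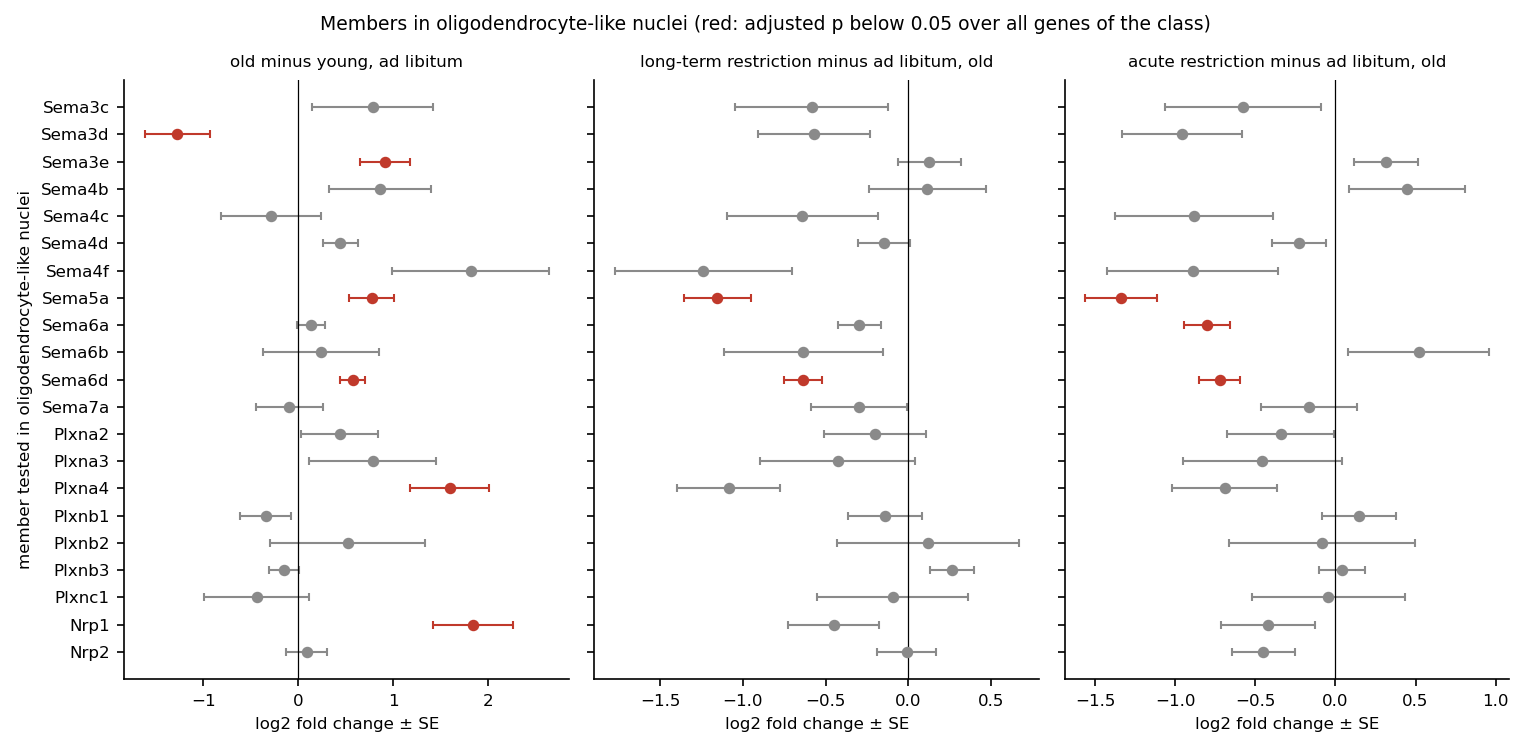
Log2 fold change (points) and SE (bars) of the 21 members tested in oligodendrocyte-like nuclei, with age (left), under long-term (middle) and under acute restriction (right), each against the old ad libitum mice or of them against the young. Red points passed the adjusted threshold; Sema6d and Sema5a are red in all 3 panels, which share the old ad libitum mice.

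In the edgeR fit of all 13 libraries no other tested class held a member call under either diet. Without the libraries numbered 1, Plxna4 in astrocyte-like nuclei was called lower under long-term restriction (-1.01, adjusted p = 0.0185), against -0.70 and an adjusted p of 0.866 with them. Plxna4 there was above the level that free neuronal RNA would give in 1 of 13 mice, so expression by astrocyte-like nuclei is not shown. In oligodendrocyte-like nuclei the median fold change of the 21 members was -0.42 under acute and -0.30 under long-term restriction, and +0.44 with age, beside -0.01, 0.00 and +0.01 over all genes tested there. The members are longer than genes in general, with median spans of 40.2 kb over the 31 members and 12.3 kb over all genes. The part of gene length in these medians was not tested. Plxnb3, whose level was highest in this class, differed by +0.04 ± 0.14 under acute and +0.26 ± 0.13 under long-term restriction, neither called. Sema4d differed by -0.23 ± 0.17 and -0.15 ± 0.16. In granule neuron-like nuclei, the highest class of Sema5a and the second highest of Sema6d, the median of 27 members was -0.08 under acute and -0.14 under long-term restriction, with 0 called and 0 at an unadjusted p below 0.05. Of the 16901 genes tested there 4 were called under acute and 0 under long-term restriction, and 5.63% and 4.28% had an unadjusted p below 0.05.

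Long-term and acute restriction were also compared directly, and 0 of 206 tests were called by edgeR or by DESeq2, with 18 at an unadjusted p below 0.05 (0.0137% of all genes and classes were called, and 3.26% had an unadjusted p below 0.05). The smallest p among members was that of Sema6a in oligodendrocyte-like nuclei, which was higher under long-term restriction by 0.51 ± 0.14 (unadjusted p = 0.00092, edgeR adjusted p = 0.198). Without acutely restricted mouse 3 there was 1 call, Sema3e in subicular or cortical excitatory neuron-like nuclei (+1.45, adjusted p = 0.00988). That fit kept acutely restricted mice 1 and 2, with 289 and 56 nuclei of this class. Sema3e differed widely between clusters of this class, as given above, and the part of their mix was not tested.

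Whether a called difference was larger in its class than in another was tested within mice with limma, on the difference of log2 CPM between 2 classes. Of 116 such tests of the called members 0 passed an adjusted p below 0.05, while 62 had an unadjusted p below it. The members were read here because they were called in 1 of the 2 classes in the same mice. That choice favours small unadjusted p-values, so no conclusion is drawn from the 62. The count was 6 without young mouse 1 and 2 without old ad libitum mouse 2. Without young mouse 3, endothelial and mural cell-like nuclei kept young mouse 1 alone, so effect sizes only are given. Nrp1, Plxna4 and Sema3e then differed with age by +4.91, +4.39 and +4.39 more in oligodendrocyte-like than in endothelial cell-like nuclei. Plxna4 differed by +6.74 more than in mural cell-like nuclei. In oligodendrocyte-like nuclei of young mouse 1, Nrp1 and Plxna4 had no UMI and Sema3e had 1. Of all genes and pairs of classes 0.0403% passed for age, 0.0103% for acute and 0.00136% for long-term restriction. No called difference is therefore shown to be larger in its class than in another.

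Signalling partners were read from a list of 47 genes that act with or below these receptors. In 318 tests of a partner in a class edgeR called 4 with age, all higher, where 1.49% of all genes were called, a share that the partners did not exceed. It called 1 under acute restriction, lower, where 0.23% of all genes were called. It called 0 under long-term restriction, with 13 at an unadjusted p below 0.05 beside 4.94% of all genes, and 0 between the diets, with 7 beside 3.26%. In oligodendrocyte-like nuclei 3 of 28 partners were called with age, beside 7.79% of all genes. With age Nrcam, an adhesion molecule that joins neuropilin complexes, rose in oligodendrocyte-like nuclei from 37.8 ± 10.6 to 76.9 ± 8.01 CPM (+1.02 ± 0.25, edgeR adjusted p = 0.009, n = 3 each). Dpysl5, a collapsin response mediator, rose there from 6.90 ± 3.92 to 15.6 ± 2.86 CPM (+1.75 ± 0.48, edgeR adjusted p = 0.0211). The Dpysl5 values of the young mice rest on 1, 5 and 4 UMIs. Mical2, an enzyme of the family that loosens actin downstream of plexins, rose there from 10.6 ± 0.679 to 31.9 ± 9.79 CPM (+1.51 ± 0.44, edgeR adjusted p = 0.0324). Set beside free neuronal RNA as above, Mical2 was at or under the level so given in 13 of 13 mice and Nrcam in 12 of 13, so expression by these nuclei is not shown for them. Their means were 19.99 and 61.6 CPM, against 44.4 and 82.6 CPM from the granule neuron-like level. Dpysl5 was above it in 13 of 13 (11.8 against 1.26 CPM). Farp1, a guanine exchange factor that binds A-type plexins, rose in astrocyte-like nuclei from 1330 ± 161 to 1841 ± 98.2 CPM (+0.49 ± 0.10, edgeR adjusted p = 0.0455, where 0.401% of genes were called). Rap1a, a small GTPase of the kind that plexins switch off, fell in oligodendrocyte-like nuclei under acute restriction from 347 ± 54.5 to 255 ± 7.76 CPM (-0.52 ± 0.13, edgeR adjusted p = 0.0314). The Farp1 call was lost in 10 of the 13 fits without 1 mouse, the Rap1a call in 6, the Mical2 call in 5, the Dpysl5 call in 3 and the Nrcam call in 2. Without the length trend Dpysl5 alone of these kept its call. DESeq2 did not call Rap1a (adjusted p 0.0556), Dpysl5 (0.129) or Mical2 (0.0659), Farp1 was not called with RLE scaling (0.0535) or scaling by total UMIs (0.0795), Rap1a was not with the latter (0.067), and neither Rap1a (0.051) nor Mical2 (0.0621) was called without the libraries numbered 1.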

How the data were processed

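The files are UMI counts per gene and barcode, deposited by the authors as filtered matrices for 13 libraries of 10x Genomics v3 chemistry. Per the submitters' processing notes they came from Cell Ranger 4.0.0 on mm10; whether intronic reads or strand were counted is not given in the sources used here. Barcodes with fewer than 500 genes, or with a mitochondrial share of UMIs above 5%, were dropped, which left 105427 of 105759, and the 7386 with the highest Scrublet scores, 0.8% per 1000 barcodes, were removed as doublets. The 2000 most variable genes other than the 31 members, 30 components and 20 neighbours gave 40 Leiden clusters (scanpy 1.11.5); 26 were named from marker lists and 14, with 10309 nuclei, were left unnamed. Counts were summed per class and library (at least 20 nuclei, at least 2 libraries per group) and tested with edgeR 4.0.16 (TMM, filterByExpr, robust quasi-likelihood, all 13 libraries in 1 fit), and differences between classes with limma 3.58.1. DESeq2 1.42.0 was an alternative, as were other scalings, filters, covariates and fits without 1 library. Fits that left out libraries kept the same classes, so a group could then hold 1 library. The fits were checked on simulated counts. The members and lists were chosen with earlier results of these data known. Members and classes called at an adjusted p below 0.05 are named with their values, every member is named with its highest class, and up to 5 called partners are named per comparison. Of the 31 members 26 matched the RefSeq promoter table (GRCm38.p6). Same-numbered libraries correlated in their deviations from the group means by -0.23 to 0.83 in granule neuron-like and by -0.13 to 0.21 in oligodendrocyte-like nuclei, so the numbers were not taken to pair them.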

Additional observations from a re-analysis of the deposited data

Results flagged for a closer look

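In the long-term restriction group, 1 mouse stood apart from the other 3 for both of these genes. Plxna2 in dentate granule neuron-like nuclei stood at 197 CPM in long-term mouse 3, while the others lay between 162 and 166 CPM. Plxna4 in inhibitory neuron-like nuclei stood at 490 CPM in the same mouse, with the others between 407 and 417 CPM. The gap of that mouse to its nearest neighbour passed Dixon's criterion for 4 samples in both cases; 9 groups of 4 were looked at, and chance flags about 1 in 20. Neither gene was called in that class in a comparison that uses this group, in the edgeR fit of all 13 libraries. Long-term mouse 3 also had the highest median UMIs per nucleus of its group in both classes. They were 9276 against 6398.5 to 7236 in granule neuron-like and 10997.5 against 7808.5 to 8610 in inhibitory neuron-like nuclei. The part of depth in these values was not tested.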

How the results depend on the processing

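With the median UMI count per nucleus as a covariate 0 members were called with age, 0 under long-term and 0 under acute restriction. With the trend on gene length removed the counts were 2 with age and 0 under long-term restriction, and Sema6d in oligodendrocyte-like nuclei reversed with age to -0.22. A term for the libraries numbered 1 gave 16 member calls with age and 1 difference between classes. Added by it were Nrp1, Plxnc1, Sema3c, Sema4d, Sema5a and Sema6a in granule neuron-like nuclei, with Sema3c and Sema6a lower in old mice. The mean level of Sema3c there was 0.913 CPM, in its lowest class. It also added Nrp1 in inhibitory neuron-like, Plxnc1 in astrocyte-like and Plxna4 in oligodendrocyte precursor-like nuclei (+0.80, edgeR adjusted p 0.0170). Same-numbered libraries did not deviate together in every pair. A replicate block in edgeR gave 14 calls with age, 6 of them among the 8. Sema3d (-1.21, adjusted p 0.0518) and Sema5a (+0.64, 0.105) in oligodendrocyte-like nuclei were lost. Added in granule neuron-like nuclei were Nrp1, Plxna4 (+0.43, adjusted p 0.0344), Plxnc1, Sema3c, Sema4d and Sema5a, of which Sema3c alone was lower. Plxna4 (+0.99, 0.00567) and Sema3e (+0.55, 0.0482) were added in oligodendrocyte precursor-like nuclei. The block gave 3 calls under long-term restriction (with Plxna4 in oligodendrocyte-like nuclei, -1.15, adjusted p 0.0353). It gave 1 call between the diets (Sema6a in oligodendrocyte-like nuclei, +0.56, adjusted p 0.0431). Without 1 library the member calls ranged from 0 to 11 with age, 0 to 2 under long-term restriction, 3 to 3 under acute restriction and 0 to 1 between the diets, and the differences between classes from 0 to 6. The cause of these changes was not tested. Scaling by total UMIs, added after seeing the data, gave 6 calls with age, 2 and 3 under the diets. The highest class was kept by 25 members with at least 50 nuclei per sum and by 28 with the median over mice. Young mouse 1 had 47 oligodendrocyte-like nuclei and 88392 UMIs in them, the fewest of the 13 libraries.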
